A study of Mus musculus with 16 samples.

Results

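The markers of fibroblasts and stellate cells were examined in PDA30364 tumors of mice given gemcitabine (GEM), agonist anti-CD40 Ab, both or neither. Probe sets annotated to 1 of 10 genes alone (Acta2, Fap, Pdgfra, Pdgfrb, Pdpn, Thy1, Dcn, Lum, Postn and Tagln) were taken, and the brightest over all arrays stood for its gene. All 10 were measured, by 16 probe sets, among 18193 named genes and 45037 probe sets in all. PDA30364 is a mouse pancreatic ductal adenocarcinoma line, so all tumors derive from 1 line. Every group was made of C57BL/6-Ly5.1 hosts, 6 to 12 weeks old, with the tumor cells placed under the skin of the flank in Matrigel. The 16 arrays fall into GEM/anti-CD40 Ab, GEM with control IgG, anti-CD40 Ab with vehicle, and control with vehicle and control IgG, 4 arrays each. Mice of the GEM arms received 120 mg/kg on day 1 of treatment and again on days 5 and 12. Antibody or IgG followed on 4 days (3, 4, 6 and then 14), and tumors were taken on day 22 or 23 after inoculation. A small piece of whole tumor was lysed, so the values mix tumor cells, host stroma and infiltrating cells, and fewer cells of a type cannot be told apart from less RNA per cell. Intensities are RMA values on a log2 scale, where 1 unit is a doubling.

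Fibroblasts make the collagen-rich stroma for which pancreatic cancer is known, and pancreatic stellate cells are one source of them. Cancer-associated fibroblasts are commonly divided into contractile myofibroblasts, which carry alpha smooth muscle actin, and inflammatory fibroblasts, which secrete cytokines and chemokines. CD40 is carried mainly by antigen-presenting cells, and GEM is a nucleoside analog that blocks DNA synthesis.

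The markers of fibroblasts at large were well measured. Their probe sets lay between the 69.3rd and the 97.2nd percentile of mean intensity over all probe sets, with Fap the dimmest and Postn the brightest, which ranks probes and not transcript levels. Among the 5 measured genes of quiescent or desmin-positive stellate cells, Des (desmin, which muscle also makes) was at 7.64 ± 0.63 in control tumors and Cygb (cytoglobin) at 7.37 ± 0.20 (SD, n = 4). The others were dim there, with Gfap at 4.695, Ngfr at 4.57 and Lrat at 3.065. The list averaged 5.08 to 6.23 per array, with the top value in 1 GEM/anti-CD40 Ab tumor with muscle genes. Levels of different probes were not compared, and the share of stellate cells was not tested. The 10 genes are called markers in what follows. Tumor epithelium genes averaged 11.4 to 12.1 over all arrays.

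Genes of skin or skeletal muscle were highest on 3 arrays. Skin keratinocyte genes (11 measured) averaged 6.50 in anti-CD40 Ab replicate 2 and 8.24 in control replicate 2, against 4.46 to 5.04 on the other 14 arrays. Skeletal muscle genes (12 measured) averaged 12.2 in GEM/anti-CD40 Ab replicate 4, against 4.61 to 7.80 elsewhere, with GEM replicate 4 (7.80) and control replicate 4 (7.41) next. Adipocyte genes (6 measured) averaged 7.36 in GEM/anti-CD40 Ab replicate 4 and 7.33 in GEM replicate 3, against 5.11 to 6.56 elsewhere. Skin and muscle contain fibroblasts of their own. Over the 10 markers, GEM/anti-CD40 Ab replicate 4 had the highest mean of its group (9.49), anti-CD40 Ab replicate 2 the lowest of its group (8.69) and control replicate 2 the highest of its group (9.66). Several values below are also given without the 3 arrays where skin or muscle genes were highest. The other arrays named here with muscle or adipocyte genes stay in. The part of skin, muscle and fat in these values was not tested. The labels of GEM replicates 3 and 4 hold 1 animal number for both while the methods speak of 4 mice. Both were kept as replicates, so the 4 GEM arrays may not stand for 4 separate mice.

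**Figure D1:**
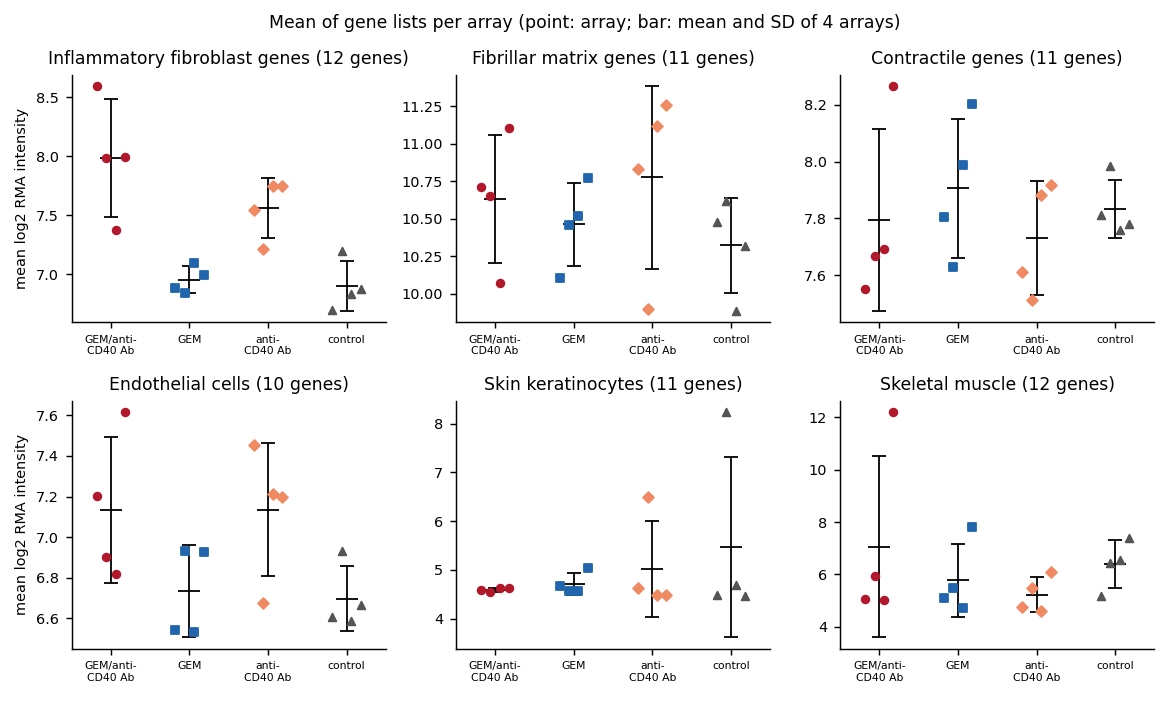
Mean log2 RMA intensity of 6 gene lists on each array (vertical axes), by group, with 1 point per array and bars for the mean and SD of 4 arrays. Skin genes stand out on 1 anti-CD40 Ab (6.50) and 1 control array (8.24) and muscle genes on 1 GEM/anti-CD40 Ab array (12.2), whereas inflammatory fibroblast genes were at 7.37 to 8.60 with GEM/anti-CD40 Ab and 6.84 to 7.09 with GEM.

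No marker passed an adjusted p of 0.05 in any comparison, by limma with Benjamini-Hochberg adjustment over all 45037 probe sets. The same test called 0% of probe sets for anti-CD40 Ab against control, for GEM against control, for GEM/anti-CD40 Ab against GEM, for GEM/anti-CD40 Ab against anti-CD40 Ab and for the interaction of the 2 drugs. For any difference among the 4 groups it called 0.0355% (16 probe sets), and 0.0178% (8 probe sets) when GEM/anti-CD40 Ab was set against control. At an unadjusted p under 0.05, 1 marker (Pdpn) was counted for anti-CD40 Ab against control, where 6.08% of all probe sets were, and 0 for GEM against control (5.72%). The count was 1 (Pdpn) for GEM/anti-CD40 Ab against control (9.58%), 2 (Pdpn and Lum) for GEM/anti-CD40 Ab against GEM (11.6%) and 0 for GEM/anti-CD40 Ab against anti-CD40 Ab (4.6%). It was 0 for the interaction (5.24%) and 1 (Pdpn) for any difference among the 4 groups (9.48%). The unadjusted counts depended on the 3 arrays with skin or muscle genes. Without them 7 markers (Pdgfra, Pdgfrb, Pdpn, Thy1, Dcn, Lum and Postn, all higher) were counted for anti-CD40 Ab against control, beside 6.51% of all probe sets, and 5 (Fap, Pdgfrb, Thy1, Lum and Postn, all lower) for GEM/anti-CD40 Ab against anti-CD40 Ab (6.21%). The count was then 1 (Lum) for GEM against control (5.19%), 2 (Pdpn and Dcn) with GEM/anti-CD40 Ab set against control (5.93%) and 3 (Acta2, Pdpn and Lum) for GEM/anti-CD40 Ab against GEM (10.7%). It was 2 (Lum and Postn) for the interaction (6.73%) and 7 for any difference among the 4 groups (9.72%). The 3 arrays include the highest control and the lowest anti-CD40 Ab tumor over the markers, so leaving them out by itself raises anti-CD40 Ab relative to control. The markers also vary together, so a count is not one of independent genes. None of these markers passed the adjusted test, so the changes below are sizes with their errors, not calls.

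**Figure D2:**
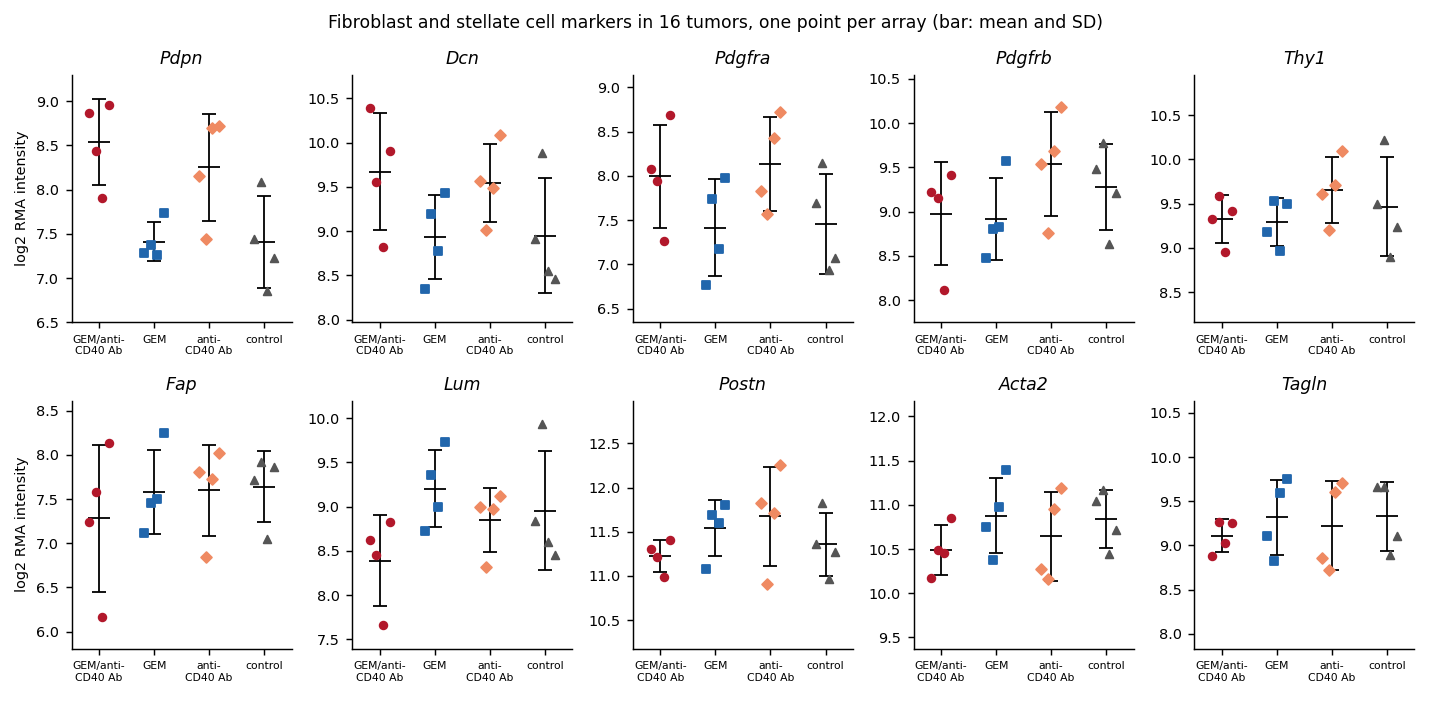
Log2 RMA intensity (vertical axes, each spanning 2.8 units) of the 10 markers on the 16 arrays, by group, with 1 point per array and bars for mean and SD. Pdpn is the marker whose GEM/anti-CD40 Ab arrays (7.90 to 8.95) all lie above the GEM arrays (7.26 to 7.74), and for the other markers these 2 groups overlap.

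Podoplanin (Pdpn), a surface glycoprotein of activated fibroblasts and of lymphatic endothelium, had the largest difference of the 10 markers in 3 of the 5 comparisons of 2 groups. Its log2 intensity was 8.87, 8.43, 7.90 and 8.95 in GEM/anti-CD40 Ab tumors, 7.28, 7.37, 7.26 and 7.74 in GEM tumors, 8.15, 7.44, 8.69 and 8.72 in anti-CD40 Ab tumors and 7.44, 8.09, 6.85 and 7.23 in control tumors. Both groups that received the antibody were thus at the high end, with anti-CD40 Ab replicate 2 as the lowest of the 8 antibody-treated tumors and control replicate 2 as the highest of the other 8, both among the arrays with skin genes. Pdpn was 1.13 higher with GEM/anti-CD40 Ab than with GEM, which is 2.18-fold (SE 0.22, 95% interval 0.63 to 1.62, adjusted p = 0.197). The groups did not overlap, as was the case for 6.16% of all probe sets in this comparison. Against control, it was 1.14 higher with GEM/anti-CD40 Ab (SE 0.30, adjusted p = 0.407) and 0.85 higher with anti-CD40 Ab (SE 0.32, adjusted p = 0.807). These 2 comparisons share the control arrays. With the 3 arrays left out, the last value was 1.35 (adjusted p = 0.151), and over the 4 groups the adjusted p for Pdpn was 0.0744, against 0.244 with all arrays. The 4 measured lymphatic endothelial genes averaged 4.40 to 4.88 with GEM/anti-CD40 Ab and 4.37 to 4.59 with GEM. They were dim, so a change in that cell type could be missed, and which cells made the Pdpn RNA was not tested.

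Decorin (Dcn) and lumican (Lum) encode small leucine-rich proteoglycans of the collagen matrix and are neighbouring genes on mouse chromosome 10. Dcn was at 10.39, 9.56, 8.82 and 9.91 in GEM/anti-CD40 Ab tumors, 8.35, 9.19, 8.78 and 9.43 in GEM tumors, 9.57, 9.01, 9.49 and 10.09 in anti-CD40 Ab tumors and 8.91, 9.88, 8.55 and 8.46 in control tumors. Lum was at 8.62, 8.45, 7.66 and 8.83 in GEM/anti-CD40 Ab tumors, 8.72, 9.36, 9.0 and 9.73 in GEM tumors, 8.99, 8.32, 8.97 and 9.12 in anti-CD40 Ab tumors and 8.84, 9.93, 8.60 and 8.45 in control tumors. All pairs of groups overlapped for either gene, but their means were ordered differently. With GEM/anti-CD40 Ab against GEM, Dcn was 0.73 higher (SE 0.33, adjusted p = 0.446) and Lum 0.81 lower (SE 0.28, adjusted p = 0.325). With GEM/anti-CD40 Ab against control, Dcn was 0.72 higher (SE 0.38) and Lum 0.57 lower (SE 0.35). Leaving out 1 array at a time moved these changes to between 0.48 and 1.03 for Dcn and between -0.73 and -0.24 for Lum, the last without control replicate 2. The other probe set of Dcn, which is dim (mean 4.09), changed by -0.035 for GEM/anti-CD40 Ab against GEM and by -0.07 against control. With anti-CD40 Ab against control, Dcn was 0.59 higher (SE 0.32), and 1.08 higher without the 3 arrays (adjusted p = 0.198). The change of Lum there had no settled sign, at -0.11 with all arrays (SE 0.31) and 0.40 without the 3 arrays (adjusted p = 0.539).

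Within an array, the difference of the log2 values of both genes cancels what raises or lowers both together. Its absolute height depends on the probes, so only its change between groups is read here. Dcn minus Lum was 1.77, 1.11, 1.16 and 1.08 in GEM/anti-CD40 Ab tumors, -0.37, -0.17, -0.22 and -0.30 in GEM tumors, 0.58, 0.69, 0.52 and 0.97 in anti-CD40 Ab tumors and 0.07, -0.05, -0.05 and 0.01 in control tumors. No 2 of the 4 groups overlapped, and the SD within a group was 0.33, 0.09, 0.20 and 0.06 in the same order. The group mean stood 1.29 above control with GEM/anti-CD40 Ab and 0.70 above it with anti-CD40 Ab, while with GEM it stood at -0.26 relative to control. Without the 3 arrays these values were 1.34, 0.68 and -0.28. The pair was picked after its values were seen, so no test is given. Of the 45 pairs of markers it was the one in which all 4 groups were apart, and over all pairs of named genes the share of such pairs was 0.000193%. That share covers pairs of any genes, whereas the markers varied together within groups (median r 0.81), which narrows their differences. It is thus no chance level for this pair.

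**Figure D3:**
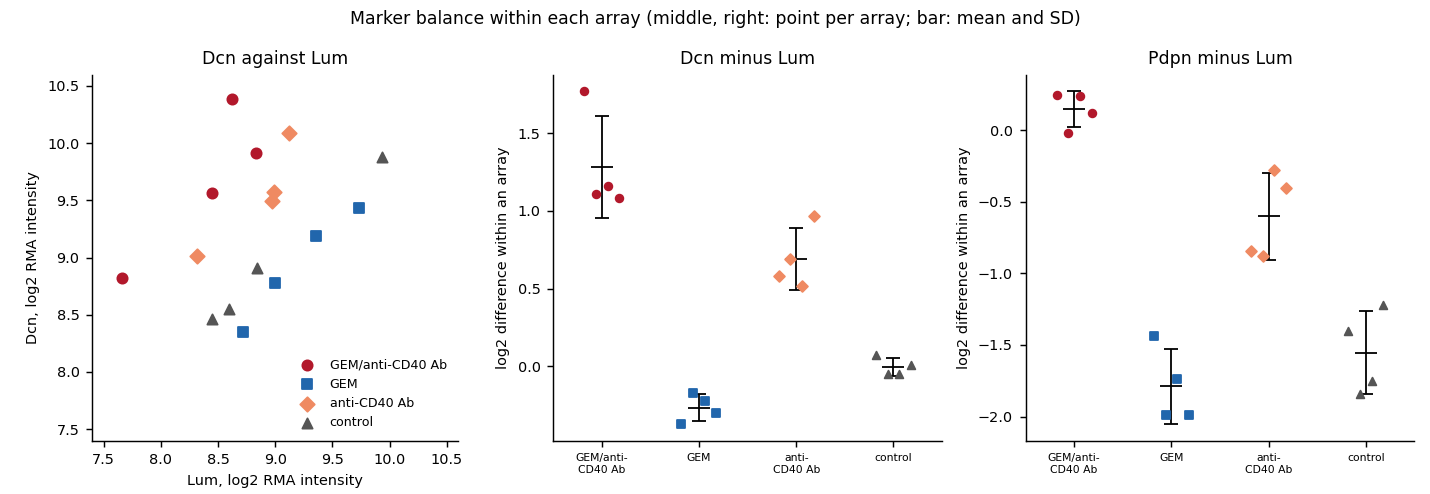
Left, log2 RMA intensity of Dcn (vertical) against Lum (horizontal) on 16 arrays; middle and right, Dcn minus Lum and Pdpn minus Lum within each array by group, with bars for mean and SD. The groups form parallel bands on the left, and Dcn minus Lum runs from 1.08 to 1.77 with GEM/anti-CD40 Ab, -0.37 to -0.17 with GEM, 0.52 to 0.97 with anti-CD40 Ab and -0.05 to 0.07 in control.

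Differences within an array were then counted over all pairs of markers. They did not overlap for 15 of 45 pairs (33.3%) with GEM/anti-CD40 Ab against control, where 6.39% of all pairs of named genes did not, for 16 (35.6%) with GEM/anti-CD40 Ab against GEM (8.34%) and for 14 (31.1%) with anti-CD40 Ab against control (3.9%). For anti-CD40 Ab against GEM the count was 16 (35.6%), beside 5.9% over all pairs. With GEM against control 2 pairs (4.44%) did not overlap, beside 4.02%, and with GEM/anti-CD40 Ab against anti-CD40 Ab 4 pairs (8.89%), beside 2.29%. The 45 pairs share 10 genes and the comparisons share arrays, so the counts are a description. Genes that vary together within groups have narrower differences, and the shares over all pairs are not matched for this. Pdpn minus Lum, the pair with the widest step, was -0.02 to 0.25 with GEM/anti-CD40 Ab, -1.99 to -1.44 with GEM, -0.88 to -0.28 with anti-CD40 Ab and -1.84 to -1.22 in control.

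The PDGF receptors carry the growth signal of mesenchymal cells, Pdgfra on fibroblasts and Pdgfrb on fibroblasts and pericytes. Pdgfra was at 8.08, 7.94, 7.26 and 8.69 with GEM/anti-CD40 Ab, 6.77, 7.74, 7.17 and 7.98 with GEM, 7.83, 7.57, 8.43 and 8.72 with anti-CD40 Ab and 7.69, 8.15, 6.93 and 7.07 in control. It was 0.68 higher with anti-CD40 Ab than in control (SE 0.32, adjusted p = 0.807), 0.53 higher with GEM/anti-CD40 Ab than in control (SE 0.34) and 0.58 higher with GEM/anti-CD40 Ab than with GEM (SE 0.33), and the groups overlapped each time. The first of these was 1.10 without the 3 arrays (adjusted p = 0.421). In the same order of comparisons, the dimmer probe sets of Pdgfra changed by 0.195, 0.16 and 0.31 (mean 5.21) and by 0.25, 0.015 and -0.01 (mean 4.31). Pdgfrb was at 9.22, 9.15, 8.12 and 9.42 with GEM/anti-CD40 Ab, 8.48, 8.80, 8.83 and 9.57 with GEM, 9.54, 8.76, 9.69 and 10.18 with anti-CD40 Ab and 9.48, 9.78, 8.64 and 9.21 in control. Its highest mean was that of anti-CD40 Ab, and it was 0.57 lower with GEM/anti-CD40 Ab than with anti-CD40 Ab (SE 0.34, adjusted p = 0.937). The 4 PDGF ligand genes had median changes between -0.07 and 0.05 over the 5 comparisons of 2 groups, and the 7 pericyte genes between -0.30 and 0.17, with no gene called.

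Contractile fibroblasts are marked by Acta2 (alpha smooth muscle actin) and Tagln (transgelin, an actin-binding protein). Acta2 was at 10.17, 10.49, 10.45 and 10.85 with GEM/anti-CD40 Ab, 10.75, 10.38, 10.98 and 11.39 with GEM, 10.27, 10.16, 10.95 and 11.19 with anti-CD40 Ab and 11.04, 11.17, 10.44 and 10.72 in control. Tagln was at 8.88, 9.27, 9.03 and 9.25 with GEM/anti-CD40 Ab, 9.11, 8.83, 9.59 and 9.75 with GEM, 8.86, 8.72, 9.60 and 9.71 with anti-CD40 Ab and 9.66, 9.66, 8.89 and 9.11 in control. In the anti-CD40 Ab group both genes were low in replicates 1 and 2 and high in replicates 3 and 4, a split larger than any difference between group means. With GEM/anti-CD40 Ab, Acta2 was 0.39 lower than with GEM (SE 0.21, adjusted p = 0.529) and 0.35 lower than in control (SE 0.18, adjusted p = 0.576), and Tagln 0.21 lower (SE 0.19) and 0.22 lower (SE 0.19). Of the other 11 contractile genes, which smooth muscle also expresses, 0 passed. Those with the smallest p for GEM/anti-CD40 Ab against GEM were Actg2 (gamma smooth muscle actin, log2 change -1.03, SE 0.32), Cnn1 (calponin, -0.61, SE 0.23) and Myh11 (smooth muscle myosin, -0.19, SE 0.08). The list as a whole had 5 genes above 0 and 6 below, with a median of -0.05, against -0.03 over all probe sets.

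The Acta2 promoter is known for CArG boxes, elements bound by serum response factor in contractile cells, and its sequence is shown for that reason. The 250 bases before the RefSeq start (GRCm38.p6, chr19:34255374-34255623, minus strand) are printed 5′ to 3′, with CArG boxes in capitals, allowing at most 1 base of the core that is neither A nor T.
Acta2 promoter: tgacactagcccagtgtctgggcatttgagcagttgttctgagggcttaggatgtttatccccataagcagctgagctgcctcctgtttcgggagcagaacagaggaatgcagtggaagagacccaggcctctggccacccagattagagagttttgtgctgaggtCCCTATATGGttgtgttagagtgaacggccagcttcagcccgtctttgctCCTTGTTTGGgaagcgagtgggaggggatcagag
The 2 boxes lie 84 to 75 and 34 to 25 bases before the start and read on both strands. Such a box is found in 8.59% of 32851 promoter windows of this length. Windows were at hand for 4 of the 10 members, and those of Pdpn, Pdgfra and Postn hold neither this box nor the letters TTCNNNGAA (GAS element, in 7.02% of windows) or TGANTCA (AP-1 site, in 6.75%), searched on both strands. This says only which letters are in these windows.

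Periostin (Postn), a matricellular protein of activated fibroblasts, was at 11.31, 11.21, 10.99 and 11.41 with GEM/anti-CD40 Ab, 11.08, 11.69, 11.60 and 11.80 with GEM, 11.83, 10.91, 11.71 and 12.25 with anti-CD40 Ab and 11.36, 11.83, 10.97 and 11.27 in control. It was lower by 0.31 with GEM/anti-CD40 Ab than with GEM (SE 0.16, adjusted p = 0.488) and by 0.45 than with anti-CD40 Ab (SE 0.24, adjusted p = 0.937), and 0.32 higher with anti-CD40 Ab than in control (SE 0.27), or 0.73 without the 3 arrays. The interaction of the drugs was -0.63 for Postn (SE 0.34, adjusted p = 0.890) and -0.71 for Lum (SE 0.45, adjusted p = 0.893). These were the lowest values among the 10 markers, and neither passed. For Lum the interaction was -1.36 without the 3 arrays (adjusted p = 0.586).

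Fap (fibroblast activation protein, a serine protease of activated fibroblasts) and Thy1 (a surface protein of fibroblasts and also of mouse T cells) had group means close to one another. Fap was at 7.24, 7.58, 6.17 and 8.13 with GEM/anti-CD40 Ab, 7.12, 7.46, 7.50 and 8.25 with GEM, 7.80, 6.85, 7.73 and 8.02 with anti-CD40 Ab and 7.72, 7.92, 7.05 and 7.86 in control. The GEM/anti-CD40 Ab tumors alone spanned nearly the whole range of Fap. Thy1 was at 9.33, 9.59, 8.95 and 9.42 with GEM/anti-CD40 Ab, 9.18, 9.53, 8.97 and 9.50 with GEM, 9.61, 9.20, 9.71 and 10.10 with anti-CD40 Ab and 9.50, 10.22, 8.90 and 9.24 in control. The 8 other T cell genes had a median change of 0.67 for GEM/anti-CD40 Ab against GEM, all 8 above 0, and their summed linear intensity was 493 to 1118 with GEM/anti-CD40 Ab and 370 to 411 with GEM. Thy1 had no such step, since its change there was within 0.39 of 0 at either end of the 95% interval (-0.34 to 0.39).

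For GEM alone the changes were small beside their errors. All 10 changes for GEM against control lay between -0.36 (Pdgfrb, SE 0.27) and 0.25 (Lum, SE 0.33), with a median of -0.01, and the smallest adjusted p was 0.880. Postn was 0.19 higher (SE 0.20), and Lum was 0.57 higher without the 3 arrays (adjusted p = 0.953). No marker had groups that did not overlap, where 3.21% of all probe sets had. The same count was 0 with GEM/anti-CD40 Ab set against control (5.1%), 0 with GEM/anti-CD40 Ab set against anti-CD40 Ab (2.63%) and 0 with anti-CD40 Ab set against control (3.03%). The interval of each change reached 0.5 or more in at least 1 direction, so changes of that size are not excluded by 4 arrays a group.

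Over the 10 markers the median change was -0.18 for GEM/anti-CD40 Ab against control (3 above 0 and 7 below), -0.09 for GEM/anti-CD40 Ab against GEM (5 and 5) and -0.24 for GEM/anti-CD40 Ab against anti-CD40 Ab (2 and 8), against -0.01 to -0.03 over all probe sets. For anti-CD40 Ab against control it was 0.23 (6 and 4). That last median was 0.64 without the 3 arrays, which takes the highest control and the lowest anti-CD40 Ab tumor out, but 0.03 without control replicate 3 and 0.05 without anti-CD40 Ab replicate 4. The median for GEM/anti-CD40 Ab against GEM turned to 0.11 without GEM/anti-CD40 Ab replicate 3. Between both antibody groups, the widest differences were the lower values of Pdgfrb and Postn given above and those of Lum (0.46 lower with GEM/anti-CD40 Ab, SE 0.26) and Thy1 (0.33 lower, SE 0.19). Without the 3 arrays they were larger, at -0.97 for Pdgfrb, -0.76 for Postn, -0.78 for Lum and -0.52 for Thy1 (adjusted p = 0.789 for each). Fap and Pdgfra, at -0.32 and -0.145 with all arrays, were then at -0.85 and -0.57. Leaving out 1 array at a time brought Fap as high as 0.05 and Pdgfra as high as 0.10. The median over the markers without the 3 arrays was -0.54, and no marker passed.

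**Figure D4:**
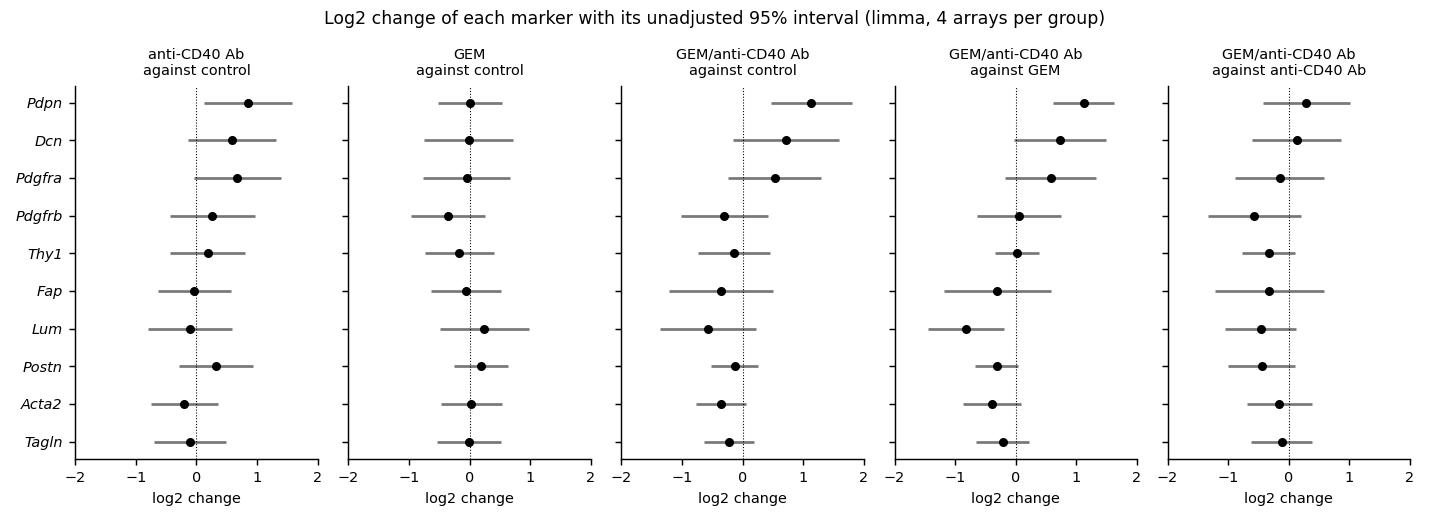
Log2 change of each marker (points) with its unadjusted 95% interval (lines) in 5 comparisons of 2 groups, by limma on 4 arrays per group. Intervals that leave out 0 are those of Pdpn in 3 comparisons and of Lum for GEM/anti-CD40 Ab against GEM, and no adjusted p was below 0.197.

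For all 10 markers, the widest range within a group was larger than the widest difference between group means, and the markers went up and down together from tumor to tumor. Over 16 arrays all 45 pairs of markers correlated above 0 (Pearson's r 0.08 to 0.95, median 0.60), and 31 pairs passed a permutation test of r and 29 one of Spearman's rho, adjusted over the 45. The share of all gene pairs that would pass was not computed, so these counts do not set the markers apart from other genes. After each group's mean was taken out, r was 0.42 to 0.96 with a median of 0.81. Acta2 and Tagln had the highest pair value (r = 0.95, rho = 0.97, two-sided permutation p = 1e-05, the smallest that 100000 permutations can give, adjusted p = 0.000225, and r = 0.93 without the 2 arrays farthest from the median of Acta2). Pdpn with Dcn gave r = 0.88 and rho = 0.90 (permutation p = 2e-05, adjusted p = 0.000225, and r = 0.84 without the 2 farthest arrays). For Dcn with Lum, r was 0.38 and rho 0.36 (permutation p = 0.153, adjusted p = 0.181) over all arrays and 0.94 after the group means were taken out. Pdpn with Lum behaved in the same way, with r = 0.08 and rho = 0.13 over all arrays (permutation p = 0.764) and 0.87 within groups. Without the 3 arrays with skin or muscle genes, r over the other 13 was 0.28 for Dcn with Lum and 0.93 for Acta2 with Tagln.

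**Figure D5:**
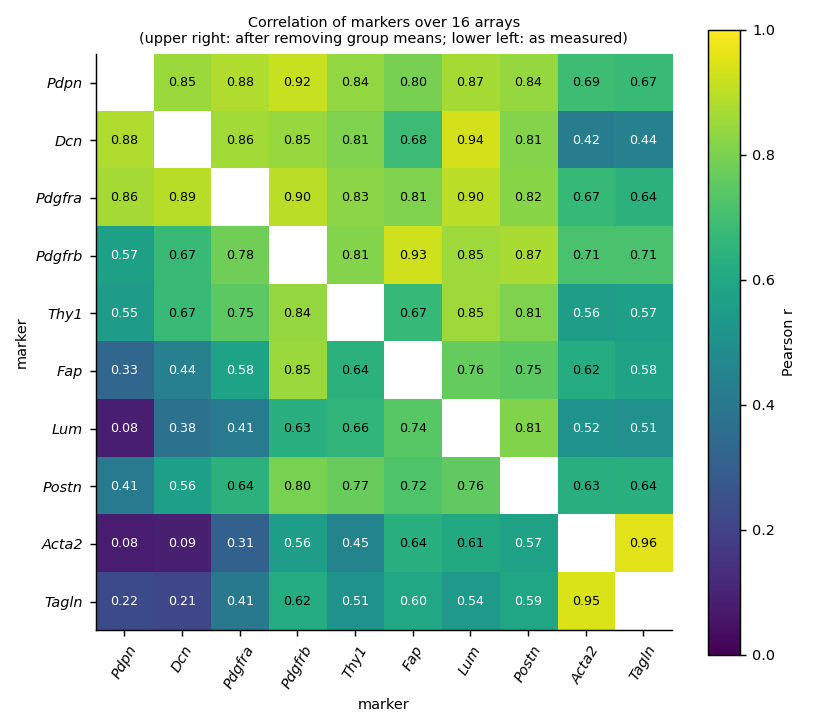
Pearson's r of each pair of markers over 16 arrays, as measured (lower left) and after the mean of each group was taken out (upper right). Dcn and Lum are at 0.38 as measured and 0.94 within groups, and Acta2 and Tagln at 0.95 and 0.96.

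The genes with the pattern most like Dcn among the named genes that are no members were Mmp2 (a gelatinase, r = 0.94), Tmem45a (0.92), Cxcl12 (a chemokine of stromal cells, 0.91), Cpxm1 (0.91) and Ifitm3 (an interferon-induced membrane protein, 0.90). Those most like Acta2 were Myl9 (a regulatory light chain of smooth muscle myosin, 0.96), Armcx2 (0.86), Fbln5 (fibulin-5, an elastic fiber protein, 0.81), Adpgk (0.79) and Angpt1 (angiopoietin-1, 0.79). These are ranks over 16 arrays with no test.

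Genes of inflammatory fibroblasts had higher median changes than the 10 markers in all 5 comparisons of 2 groups. Of 12 measured, 11 were above 0 for anti-CD40 Ab against control (median 0.55), 12 for GEM/anti-CD40 Ab against control (median 0.56) and 11 for GEM/anti-CD40 Ab against GEM (median 0.28), and 0 passed in each. For GEM against control 8 were above 0 (median 0.10), and for GEM/anti-CD40 Ab against anti-CD40 Ab 10 were (median 0.14). Saa3, an acute-phase protein that macrophages make as well, passed the test over the 4 groups (adjusted p = 0.0486), the one gene of all 19 other lists to do so. This call did not hold, since under 25 alternatives its adjusted p was below 0.05 in 5 and ranged over 0.0155 to 0.142, and without GEM/anti-CD40 Ab replicate 2 it was 0.137. Saa3 averaged 11.11 ± 1.66 with GEM/anti-CD40 Ab, 6.54 ± 0.41 with GEM, 9.24 ± 1.21 with anti-CD40 Ab and 6.90 ± 0.57 in control (SD, n = 4), which is 4.57 higher with GEM/anti-CD40 Ab than with GEM (SE 0.69, adjusted p = 0.197). The chemokines Ccl2 and Ccl7, also made by macrophages, were 1.29 (SE 0.35) and 1.49 (SE 0.31) higher in that comparison. Macrophage genes (9 measured) had a median of 0.69 there, all 9 above 0, and which cells made these transcripts was not tested.

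Matrix and TGF-beta genes were described by the same counts. All 11 fibrillar matrix genes, collagens and their cross-linking enzymes among them, were above 0 for anti-CD40 Ab against control (median 0.47) and when GEM/anti-CD40 Ab was set against control (median 0.30), with 10 above 0 for GEM against control (median 0.19), and none passed. Those with the smallest p for anti-CD40 Ab against control were Col1a2 (0.54, SE 0.25), Col3a1 (0.59, SE 0.29) and Fn1 (fibronectin, 0.23, SE 0.12). Among 13 genes of the TGF-beta pathway, Ltbp2, a latent TGF-beta binding protein of elastic fibers, was 1.35 higher with GEM/anti-CD40 Ab than with GEM (SE 0.20, adjusted p = 0.197, and 0.0851 over the 4 groups). Tgfbi, a matrix protein induced by TGF-beta, was 1.52 higher (SE 0.31) and the ligand Tgfb1 0.31 higher (SE 0.07). The median of the 13 was 0.05, with 8 above 0 and 5 below. At an unadjusted p under 0.05, 4 were higher and 2 lower, beside 11.6% of all probe sets, so the list had no common direction. The 8 other small leucine-rich proteoglycan genes had medians between -0.14 and 0.03, the 15 resting fibroblast genes between -0.03 and 0.24 and the 6 mesothelial and antigen-presenting fibroblast genes between -0.06 and 0.02 over the 5 comparisons, with no gene called.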

How the data were processed

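Tumor RNA was measured on 16 Affymetrix Mouse Genome 430 2.0 arrays. The authors applied RMA, which corrects background, normalizes arrays and summarizes probes, and deposited log2 intensities with 2 decimals. Not given in the sources used here are the software version and which arrays were normalized together. After removal of 64 array controls from 45101 probe sets, 45037 were tested without a filter. Names came from the platform annotation and a RefSeq table (GRCm38.p6, for names): 34945 probe sets had 1 symbol, 932 several and 9160 none listed.

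Groups come from the sample labels. limma 3.58.1 under R 4.3.3 was fitted to the 8 arrays of each pair of groups (moderated variances, no covariate, two-sided, Benjamini-Hochberg over all probe sets, adjusted p under 0.05), and the interaction and the test over 4 groups on 16 arrays. Fits were tested on simulated data. Correlations used 100000 permutations. Markers, the 10 related and 9 other cell type lists, and the leaving out of 3 arrays with skin or muscle genes were chosen with earlier results of these data known. All 10 markers are named, up to 3 genes of a list by smallest p, and 5 genes each most like Dcn and Acta2. Only 4 arrays per group limit the precision.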

Additional observations from a re-analysis of the deposited data

How the results depend on the processing

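No marker passed the adjusted test under any alternative, whereas calls over all probe sets, Saa3 among them, were made or lost. The median change of the markers moved by less than the SD between arrays, except the median interaction, -0.17 with all arrays and -0.68 without the 3 arrays that hold skin or muscle genes. No alternative used a dimmer probe set of Dcn or Pdgfra alone. Under the alternatives the marker changes given above kept their sign, except Fap and Pdgfra between both antibody groups and Lum with anti-CD40 Ab against control. That of Lum was 0.40 without the 3 arrays, 0.22 without control replicate 2 and 0.07 without anti-CD40 Ab replicate 2. In that comparison, leaving out 1 array at a time counted 0 to 4 markers at an unadjusted p under 0.05. Counting also those not given, 31 of 60 marker values turned sign under at least 1 alternative, all of 0.36 or less in size. For Pdpn, GEM/anti-CD40 Ab against GEM ranged over 0.99 to 1.34 and its adjusted p over 0.0582 to 0.472. Leaving out 1 array at a time gave 0.66 to 1.12 for Pdpn with anti-CD40 Ab against control. The Dcn minus Lum differences, whose alternatives were added after the values were seen, stayed within 1 SD. Over all probe sets, calls for GEM/anti-CD40 Ab against control were 8, but 0 with the replicate block, 0 without GEM/anti-CD40 Ab replicate 2, 2 without the 3 arrays, 13 with a trended prior and 44 with all 16 arrays in one fit. Calls over the 4 groups were 16, but 0 without GEM/anti-CD40 Ab replicate 2, 151 without GEM/anti-CD40 Ab replicate 3 and 7 to 28 otherwise. Where there were 0, alternatives gave up to 3 for anti-CD40 Ab against control, 8 for GEM against control and 1 for GEM/anti-CD40 Ab against GEM. Tumors of different groups with the same replicate number correlated at r -0.27 to 0.27 after group means were taken out, with 10 of 24 pairs above 0.1. Those with other numbers correlated at -0.44 to 0.39, and whether the numbers pair the tumors was not tested. With the replicate block the markers at an unadjusted p under 0.05 were 0 for anti-CD40 Ab against control, in place of 1, and 4 for GEM/anti-CD40 Ab against GEM, in place of 2. With GEM replicates 3 and 4 averaged they were 2 for GEM/anti-CD40 Ab against GEM and 0 for GEM against control, as without averaging. Calls over all probe sets for GEM against control were then 6, in place of 0. The cause of these moves was not tested. No array of a marker stood apart within its group among 40 groups checked.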

Other observations

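Endothelial genes were counted in the same tumors. All 10 measured were above 0 for anti-CD40 Ab against control (median 0.43), for GEM/anti-CD40 Ab against control (median 0.39) and for GEM/anti-CD40 Ab against GEM (median 0.38), while for GEM against control 6 were (median 0.04), and none passed. Pecam1 (CD31) was 0.69 higher with GEM/anti-CD40 Ab than in control (SE 0.20, adjusted p = 0.444) and 0.58 higher with anti-CD40 Ab than in control (SE 0.18, adjusted p = 0.807). Skeletal muscle genes had a median of -1.03 for anti-CD40 Ab against control and -0.46 for GEM against control, all 12 below 0 in each. For GEM/anti-CD40 Ab against control it was 0.79, with 11 above 0, and 1 array of that group averaged 12.2. Control arrays alone averaged 5.16 to 7.41, and the part of muscle in the tumor pieces was not tested.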
